A study of Mus musculus with 13 samples.

Results

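The intercalated disc adhesion genes examined here are 10 genes that build the cell-to-cell junctions of heart muscle: Dsg2, Dsc2, Pkp2, Dsp, Jup, Cdh2, Ctnnb1, Ctnna3, Vcl and Tjp1. They were chosen by gene symbol, and all 10 were found among the 55536 genes of the broader deposited count table and passed the filter on low counts. Newborn C57BL/6J mice, an inbred strain, were given 1 dose of adeno-associated virus, serotype 6, into the peritoneum at postnatal day 1, and their ventricles were collected at postnatal day 56. The virus was either empty of insert (AAV_Con, here the control vector) or delivered the human progesterone receptor (AAV_PGR, here the PGR vector), a nuclear receptor that binds DNA when bound by its steroid. Cardiomyocyte nuclei were enriched by sorting on Pcm1, which coats the nuclear envelope of heart muscle cells, and their RNA was sequenced after removal of ribosomal RNA. The control vector was given to females (Con_F, 4 libraries) and males (Con_M, 3 libraries). The PGR vector was likewise given to females (PGR_F, 3 libraries, which carry the numbers 1, 2 and 4) and to males (PGR_M, 3 libraries). All groups shared strain, injection day, collection day and the virus itself, and none was left uninjected. Per the labels, each library pooled 3 to 6 whole ventricles, and the sources used here name no promoter for the insert. Nothing says whether the pools of a group came from separate litters, so p-values measure the spread between these pools.

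Cardiomyocytes are joined end to end at the intercalated disc, where mechanical and electrical contacts share one membrane. Desmosomes hold the disc to the desmin filaments: the cadherins desmoglein 2 and desmocollin 2 bind across the gap, and plakoglobin, plakophilin 2 and desmoplakin pass the load inward. Adherens junctions hold it to the sarcomeric actin through N-cadherin, the catenins and vinculin, and in the mammalian heart both kinds merge into a mixed junction called the area composita. Inherited variants in several desmosomal genes cause arrhythmogenic cardiomyopathy, and beta-catenin and plakoglobin also act in signalling to the nucleus.

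Total counts ran from 31.8 to 86.3 M per library, and the scaling factors were 0.962 to 1.06. Cardiomyocyte markers were high in every library, with Myh6, the alpha myosin heavy chain, at 9220 to 15000 CPM (counts per M, scaled by the trimmed mean of M-values, TMM) and the summed level of 10 markers at 81900 to 101000. Markers of other cell types were present at far lower sums. These sums are not scaled by gene length. Of the cardiomyocyte sum the markers Ttn and Ryr2 gave 45900 to 51500 and 17700 to 19500 CPM as group means. Over 10 genes each, endothelial markers summed to 31.5 to 84.2 CPM, fibroblast markers to 56.1 to 141 and macrophage markers to 14.9 to 27.3. The 10 mesothelial and epithelial markers, from a cell class rich in desmosomes, summed to 0.605 to 1.73 CPM; Krt5, a basal keratin, had 0 counts in every library. Mural markers summed to 308 to 367 CPM, of which Abcc9, a potassium channel subunit also made by cardiomyocytes, gave 269 to 301 as group means. Schwann and neural markers summed to 9.55 to 14.0 CPM and atrial markers to 16.4 to 35.7. The library Con_F 4 held Y-linked counts at 1.03% of the male level, against 0.0115% to 0.115% in the other 6 female libraries, and values without it are given beside the results it moves by more than 1.5 times among the vector effects in females. Fewer cells of a type and less RNA per cell cannot be told apart in such pools.

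The PGR vector changed none of the 10 genes past the threshold in either sex, and the sexes did not differ past it under either vector, whether tested with edgeR, DESeq2 or limma-voom. With edgeR the vector changed 0% of all 16125 tested genes in either sex, so the members' count equals the background. The estimates farthest from 0 for the vector lay at 4 genes. In females desmoglein 2 was 1.23-fold and plakophilin 2 1.16-fold the control level, with adjusted p-values of 0.33 and 0.342 in edgeR's quasi-likelihood test. N-cadherin was 1.16-fold and vinculin 0.855-fold the control level in males. The 95% intervals of the averaged vector effect ran from 0.07 to 0.37 on the log2 scale for Dsg2, from -0.01 to 0.37 for Cdh2 and from -0.34 to 0.04 for Vcl. For Tjp1, Dsc2, Ctnnb1 and Ctnna3 they stayed between -0.13 and 0.21. In each of these comparisons an adjusted p under 0.05 counts as past the threshold, after Benjamini-Hochberg adjustment over the 16125 genes tested.

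The length the table gives each gene is that of its whole body, so intronic reads can enter a count, and levels were read on 3 scales. In GENCODE's annotation of GRCm38 exons make up 0.459% of Ctnna3, 3.66% of Cdh2 and 22.3% of Jup, and introns hold 77.7% to 99.5% of the 10 gene bodies. Ctnna3, with a body of 1573570 bases, alone took 0.41% to 0.573% of all counts of a library, which placed it 15th in CPM among all genes of the table, and Cdh2 was 30th. Per kb of gene body the order was another. Cdh2 led with 11.8 ± 1.48 CPM per kb (SD, n = 13), followed by Dsp with 6.85 ± 0.629 and Pkp2 with 6.42 ± 0.446, which differed by less than their SDs. Dsg2, Jup, Dsc2, Ctnnb1 and Ctnna3 lay together between 3.06 and 3.20 CPM per kb, with SDs of 0.205 to 0.547, so no order among them holds. Vcl had 2.43 ± 0.299 CPM per kb and Tjp1, the lowest, 0.560 ± 0.0285. Per kb of annotated exon Ctnna3 came first again, with 667 ± 61.0, and Jup last, with 14.3 ± 2.45. That scale divides the same whole-body count by exon bases alone. A small exon share, as in Ctnna3, thus raises a gene on it, and its order is not one of exonic RNA.

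**Figure D1:**
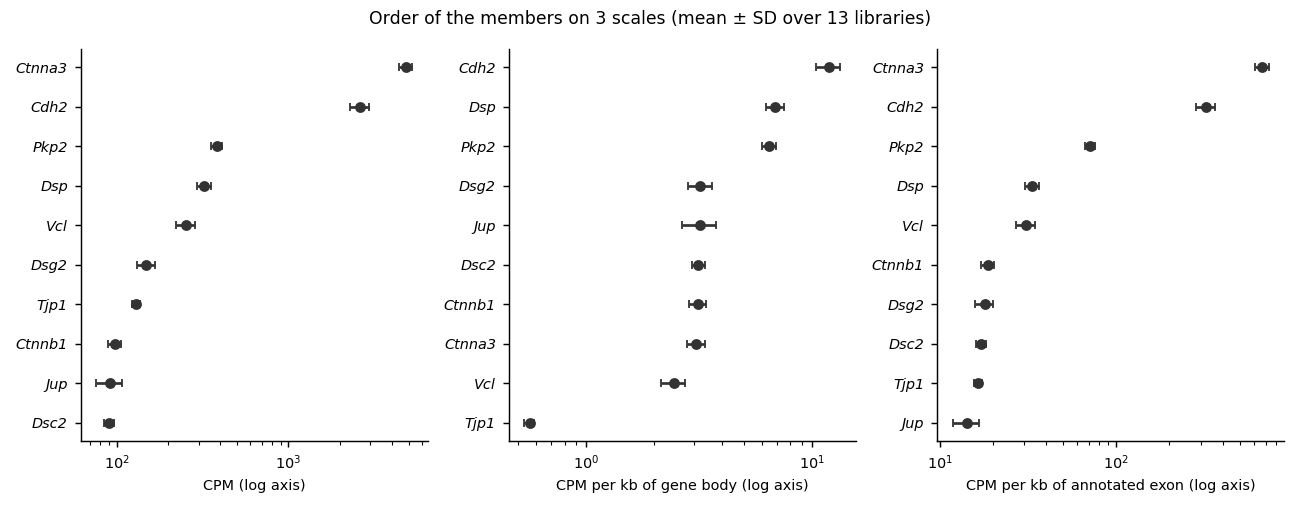
Mean level of each gene over the 13 libraries (dots) with its SD (bars) on 3 scales, each on a log axis: CPM, CPM per kb of gene body and CPM per kb of annotated exon. Ctnna3 leads on the first and the last scale and lies at 3.06 CPM per kb of gene body, within the group of 5 genes between 3.06 and 3.20, while Tjp1 is lowest per kb of gene body. The last scale divides the whole-body count by exon bases alone, so a small exon share raises a gene on it.

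The desmosomal cadherins were the first group by role. Dsg2 (ENSMUSG00000044393, GRCm38 chromosome 18, 20558074 to 20604521, plus strand) encodes desmoglein 2, which reaches across the gap between cells. The 4 Con_F libraries, in the order of their numbers, had 146, 144, 125 and 137 CPM, and the 3 PGR_F libraries had 162, 187 and 160. Every PGR_F library lay above every Con_F library. In males it stood at 156, 122 and 136 CPM in Con_M 1 to 3 and at 167, 139 and 151 in PGR_M 1 to 3, ranges that overlap. PGR vector over control gave a log2 fold change of 0.29 in females (SE 0.10, unadjusted p = 0.00867, edgeR adjusted p = 0.33), 0.14 in males (SE 0.11, adjusted p = 0.801) and 0.22 on average (SE 0.07, adjusted p = 0.196). Between the sexes the vector effect differed by 0.15 (95% interval -0.15 to 0.46, adjusted p = 1). Single libraries moved both values by more than 1.5 times. The male effect was 0.241 without Con_M 1, 0.069 without Con_M 2 and 0.070 without PGR_M 1, and the difference was 0.050 without Con_M 1, 0.075 without PGR_F 2 and 0.082 without PGR_M 2.

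Dsc2 (ENSMUSG00000024331, chromosome 18, 20030633 to 20059554, minus strand) encodes desmocollin 2, the partner cadherin of the desmosome. It varied little. Its level was 80.1 to 97.1 CPM in Con_F, 87.3 to 91.8 in Con_M, 91.1 to 100.1 in PGR_F and 86.1 to 95.8 in PGR_M. Con_F 2, at 97.1 CPM, lay inside the PGR_F range, and the other 3 Con_F libraries lay below it. Its log2 fold change was 0.14 in females (95% interval -0.02 to 0.31) and 0.04 in males (-0.14 to 0.21).

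The desmosomal plaque comprised Pkp2, Dsp and Jup. Pkp2 (ENSMUSG00000041957, chromosome 16, 16213318 to 16272712, plus strand) encodes plakophilin 2, an armadillo protein that gathers the plaque and is the gene most often altered in arrhythmogenic cardiomyopathy. Its levels were 344, 373, 329 and 366 CPM over the Con_F libraries and 405, 406 and 417 over the PGR_F libraries, again without overlap. Con_M 1 to 3 had 388, 379 and 396 CPM and PGR_M 1 to 3 had 364, 380 and 413, so the male groups overlapped. All 4 Con_F libraries were also below all 3 Con_M libraries. The log2 fold change with the vector was 0.21 in females (SE 0.07, unadjusted p = 0.0115, edgeR adjusted p = 0.342) and -0.01 in males (95% interval -0.18 to 0.16). The difference between these 2 effects was 0.22 (95% interval -0.01 to 0.45, unadjusted p = 0.0622, adjusted p = 1).

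Among the other plaque genes, Dsp (ENSMUSG00000054889, chromosome 13, 38151294 to 38198577, plus strand) encodes desmoplakin, which ties the plaque to desmin. Its level was 287 to 343 CPM in Con_F, 323 to 385 in Con_M, 277 to 349 in PGR_F and 306 to 343 in PGR_M. These ranges overlapped in every comparison of the design, and the log2 fold changes with the vector were -0.03 (SE 0.10) in females and -0.10 (SE 0.11) in males. Jup (ENSMUSG00000001552, chromosome 11, 100368958 to 100397763, minus strand) encodes plakoglobin, a close relative of beta-catenin that serves in desmosomes and adherens junctions alike. Under the control vector its values were 63.5, 79.3, 93.3 and 97.9 CPM in females 1 to 4 and 85.0, 93.1 and 119 in males 1 to 3. Under the PGR vector they were 73.9, 94.2 and 107 CPM in females and 111, 99.6 and 77.7 in males. Each group spanned much of the whole range, and Jup had the largest spread of the 10 genes, with a within-group coefficient of variation of 18.1% against 4.53% for Pkp2 and 5.05% for Tjp1. Counting error alone would give a coefficient of at most 2.1%. The interval of its vector effect was accordingly wide, from -0.25 to 0.52 log2 in females and from -0.45 to 0.37 in males. The female estimate for Jup, 0.14 with all libraries, was 0.028 without Con_F 1, 0.225 without Con_F 4, 0.268 without PGR_F 1 and 0.006 without PGR_F 4. The small Dsp effect of females was 0.015 without Con_F 4, with the sign turned, as further libraries also turned it. The Dsp effect of males ran from -0.14 without Con_M 3 to -0.02 without Con_M 1.

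**Figure D2:**
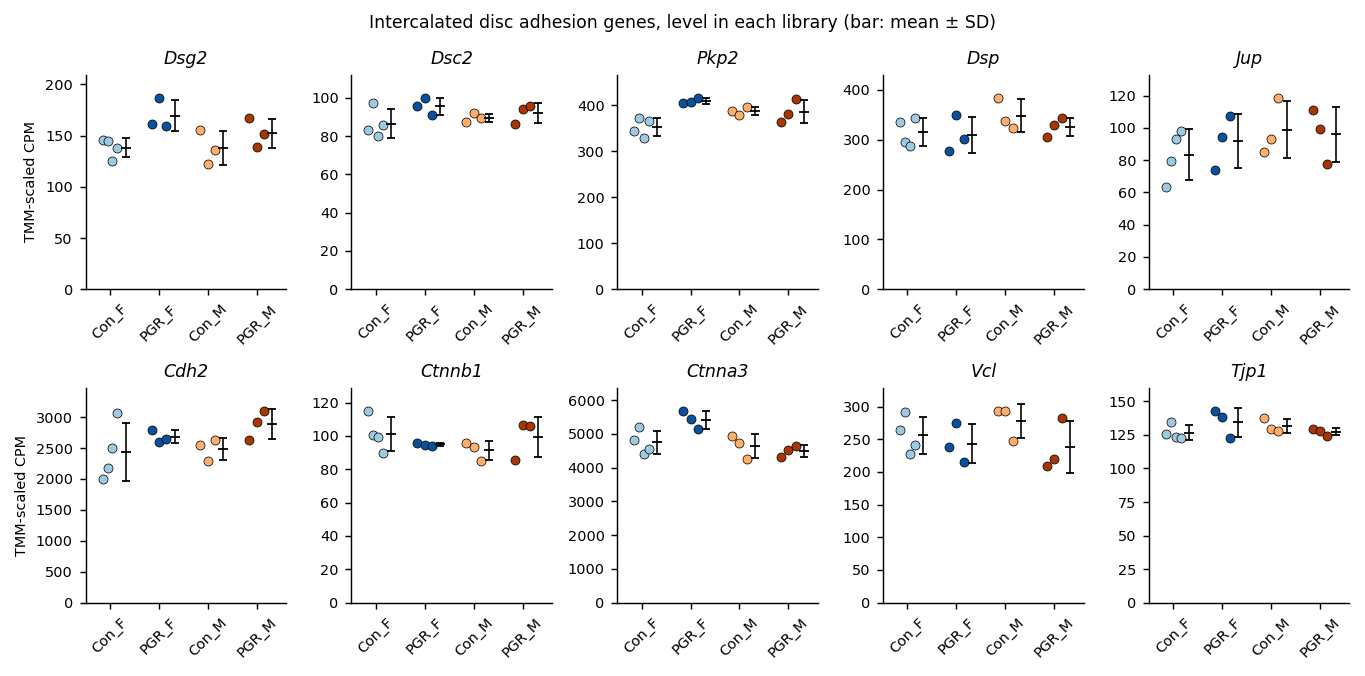
CPM of each gene (vertical axes, from 0) in every library (dots), by group, with the group mean and SD as a bar beside the dots (n = 4 in Con_F, 3 in the other groups). The PGR_F dots of Dsg2 and Pkp2 sit above all Con_F dots, and the Jup dots spread widely within each group.

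Of the adherens junction genes, Cdh2 (ENSMUSG00000024304, chromosome 18, 16588877 to 16809246, minus strand) encodes N-cadherin, the classical cadherin of heart muscle, on which the disc depends. Con_F 1 to 4 had 1995, 2176, 2500 and 3073 CPM, and the PGR_F libraries had 2800, 2596 and 2650. Con_F 4, the female library with the most Y-linked counts, was the highest of its group and lay above all of PGR_F. In males Con_M 1 to 3 had 2550, 2287 and 2625 CPM, and PGR_M 1 to 3 had 2638, 2929 and 3103, with every PGR_M library above every Con_M library, the closest being 2638 against 2625. The log2 fold change with the vector was 0.14 in females (95% interval -0.12 to 0.40), 0.22 in males (-0.07 to 0.50) and 0.18 on average (-0.01 to 0.37, edgeR adjusted p = 0.38). Without Con_F 4 the female value was 0.27, without Con_F 1 it was 0.055 and without Con_F 2 it was 0.088, so single libraries move it by more than 1.5 times.

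Ctnna3 (ENSMUSG00000060843, chromosome 10, 63430098 to 65003667, plus strand) encodes alpha-T-catenin, the alpha-catenin found mainly in heart and testis, which also binds plakophilin 2 in the area composita. Con_F 1 to 4 had 4819, 5204, 4411 and 4565 CPM, and the PGR_F libraries had 5681, 5431 and 5140. Only Con_F 2 reached into the PGR_F range. The male libraries had 4949, 4720 and 4245 CPM in Con_M 1 to 3 and 4302, 4523 and 4653 in PGR_M 1 to 3, so that all 3 PGR_F libraries lay above all 3 PGR_M libraries. With the vector its log2 fold change was 0.19 in females (SE 0.09, unadjusted p = 0.0458, edgeR adjusted p = 0.448) and -0.05 in males (SE 0.09), and the difference between them was 0.24 (95% interval -0.04 to 0.51, adjusted p = 1). The sex difference under the PGR vector was 0.27 (SE 0.09, unadjusted p = 0.0112, adjusted p = 0.529), and under the control vector it was 0.03 (SE 0.09).

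Ctnnb1 (ENSMUSG00000006932, chromosome 9, 120929216 to 120960507, plus strand) encodes beta-catenin, which binds N-cadherin and, when stabilised, acts with TCF and LEF factors in the nucleus. Con_F 1 to 4 had 115, 100.4, 99.5 and 89.9 CPM, and the PGR_F libraries had 96.0, 94.9 and 94.0. The PGR_F libraries thus fell inside the Con_F range. Con_M 1 to 3 had 96.0, 93.2 and 85.2 CPM and PGR_M 1 to 3 had 85.5, 107 and 106, again with overlap. The log2 fold change was -0.09 (SE 0.09) in females and 0.12 (SE 0.10) in males, with a difference of -0.21 (95% interval -0.50 to 0.08). Leaving out 1 library moved the female value of Ctnnb1 to -0.023 (Con_F 1) or -0.145 (Con_F 4). The male value became 0.077 without Con_M 3, 0.217 without PGR_M 1, 0.069 without PGR_M 2 and 0.076 without PGR_M 3.

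At the link to actin and in the membrane scaffold, Vcl (ENSMUSG00000021823, chromosome 14, 20929398 to 21033676, plus strand) encodes vinculin, which strengthens cadherin contacts under load. Con_F 1 to 4 had 265, 292, 228 and 241 CPM, and the PGR_F libraries had 239, 275 and 216. In males it stood at 292, 293 and 247 CPM in Con_M and at 210, 220 and 283 in PGR_M 1 to 3. PGR_M 3 lay among the Con_M libraries and the other 2 PGR_M libraries below them, and the log2 fold change in males was -0.23 (95% interval -0.50 to 0.05, edgeR adjusted p = 0.726). It was -0.37 without PGR_M 3 and -0.14 without PGR_M 1. In females the log2 fold change of Vcl was -0.08 (95% interval -0.34 to 0.18), and it was -0.17 without PGR_F 2 and -0.00 without PGR_F 4. Tjp1 (ENSMUSG00000030516, chromosome 7, 65296165 to 65527781, minus strand) encodes ZO-1, a scaffold at the rim of gap junction plaques. It was among the steadiest of the 10, at 122 to 143 CPM over all 13 libraries, with log2 fold changes of 0.09 (95% interval -0.07 to 0.24) in females and -0.05 (-0.21 to 0.12) in males. The female value of Tjp1 was 0.035 without PGR_F 1 and 0.146 without PGR_F 4, and the male value -0.014 without Con_M 1 and -0.026 without PGR_M 3.

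Read as a group, 7 of the 10 genes were above 0 in the female vector comparison (median log2 fold change 0.14) against 50.7% of all tested genes, whose median was 0.00. In that comparison 0 of 10 passed the threshold in edgeR, as did 0% of all tested genes, and 3 of 10 (Dsg2, Pkp2 and Ctnna3) had an unadjusted p under 0.05 against 10.9% of all genes. Every PGR_F library lay above every Con_F library for 2 of the 10 genes, Dsg2 and Pkp2, and for 4.17% of all genes. The reverse held for 0 of 10 and for 4.07% of all genes.

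In males 4 of 10 were above 0 (median -0.02) against 50.1% of all genes, 0 passed in edgeR against a background of 0%, and 0 had an unadjusted p under 0.05 against 7.48%. Only Cdh2 had all PGR_M libraries above all Con_M libraries, a pattern that 7.2% of all genes showed, and 0 of 10 had them all below, against 8.48%. Averaged over the sexes 8 of 10 were above 0 against 51% of all genes, with a median of 0.06, and 0 passed against 0.0062% of all genes. Dsg2 alone had an unadjusted p under 0.05 for that average, against 14.8% of all genes. For the interaction the value was above 0 in 8 of 10, against 51% of all genes, 0 passed against a background of 0%, and 0 had an unadjusted p under 0.05 against 3.26%. The female and male vector effects differed by -0.21 to 0.24 log2 over the 10 genes.

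Markers of other cells had the following values beside these. With the PGR vector 10 of 10 endothelial markers were below 0 in females (median log2 fold change -0.20, summed level 64.7 to 80.6 CPM in Con_F and 45.6 to 84.2 in PGR_F) and 10 of 10 were above 0 in males (median 0.26, 31.5 to 62.2 CPM in Con_M and 35.8 to 68.9 in PGR_M). Fibroblast markers had medians of -0.07 and 0.13, and cardiomyocyte markers of -0.11 and -0.03, in females and males. Of 8 atrial markers 7 were above 0 in males (median 0.82, summed level 16.4 to 18.1 CPM in Con_M and 19.0 to 34.0 in PGR_M) and 3 in females (median -0.05). Macrophage markers had medians of 0.14 in females and 0.33 in males, and mural markers of -0.06 and 0.14. None of these markers passed the threshold with the vector in edgeR. N-cadherin, beta-catenin, vinculin and ZO-1 are also made by endothelial or stromal cells. Over the 13 libraries each member was compared with the summed level of each of the 8 marker lists and with the mitochondrially encoded share, and 0 of these 90 relations passed after adjustment. Cdh2 with the mural markers had r = 0.72 (permutation p = 0.0053, adjusted p = 0.48), rho = 0.68 (permutation p = 0.013, adjusted p = 0.77) and r = 0.57 without the 2 libraries farthest in the marker sum. Pkp2 with the mural markers, most of whose sum is Abcc9, had r = 0.57 (permutation p = 0.042, adjusted p = 0.94), rho = 0.57 (permutation p = 0.047, adjusted p = 0.95) and r = 0.58 without the 2 farthest. Dsp had r = -0.60 with the Schwann and neural markers (permutation p = 0.03, adjusted p = 0.94), rho = -0.54 (permutation p = 0.061, adjusted p = 0.95) and r = -0.56 without the 2 farthest. These 3 were the relations with an unadjusted p for r under 0.05.

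**Figure D3:**
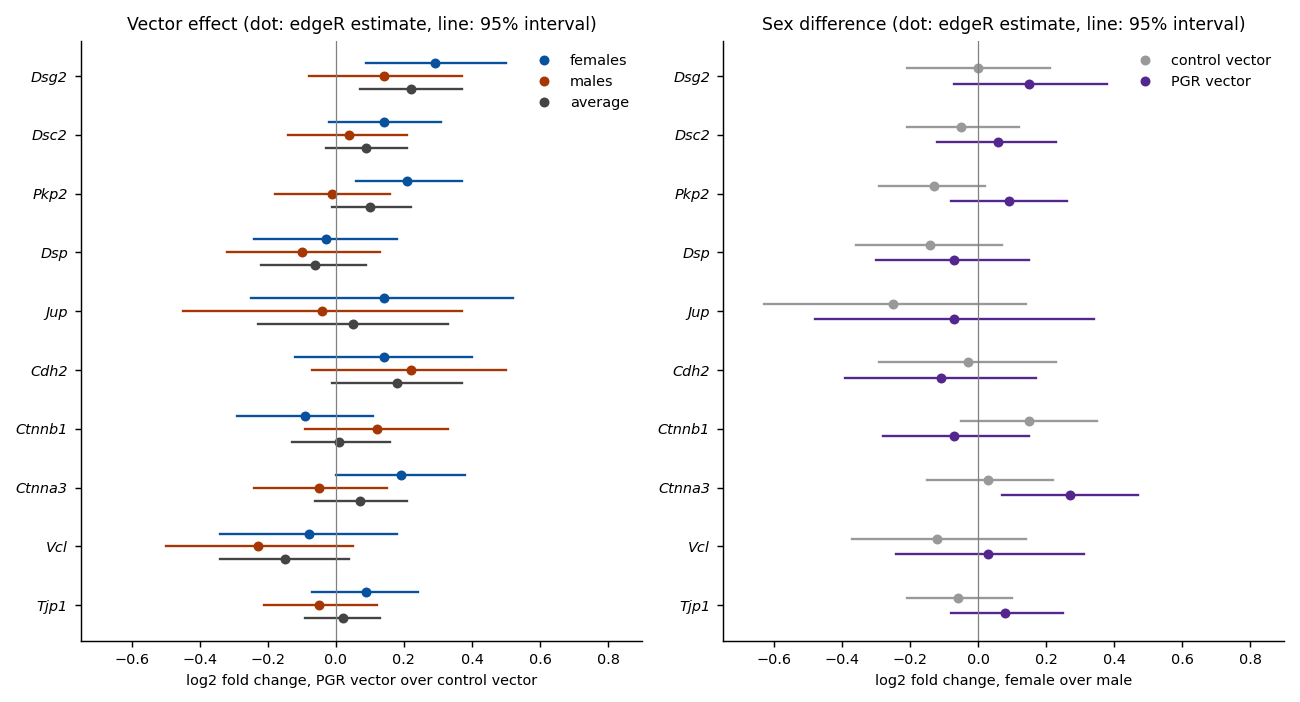
Log2 fold changes (horizontal axes) of the 10 genes with 95% intervals from the edgeR fit, for the vector effect in females, males and on average (left) and for the sex difference under each vector (right). The intervals of Dsg2, Pkp2 and Ctnna3 in females, of Dsg2 on average and of Ctnna3 for the sex difference under the PGR vector lie above 0 before adjustment, and none of the 10 genes passed after adjustment.

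The sexes were compared under each vector. With the control vector 3 of 10 genes had a female over male log2 fold change above 0 (median -0.05) against 50% of all genes, and 0 passed in edgeR against 0.229%. None had an unadjusted p under 0.05, against 12.4% of all genes. The values ran from -0.25 (SE 0.18) for Jup to 0.15 (SE 0.09) for Ctnnb1. Pkp2 was at -0.13 (SE 0.07, edgeR adjusted p = 0.479), and it was the only one of the 10 with all Con_F libraries below all Con_M libraries, as 4.94% of all genes were, while 0 of 10 had them all above, against 6.41%. With the PGR vector 6 of 10 were above 0 (median 0.04) against 53.1% of all genes, and 0 passed in edgeR against 0.143%. Ctnna3, described above, was the only one with an unadjusted p under 0.05, against 7.25% of all genes, and the only one with all PGR_F libraries above all PGR_M libraries, against 7.31%. For 0 of 10 they were all below, against 6.41%. Under the control vector all 10 endothelial and all 10 fibroblast markers had values above 0, with medians of 0.71 and 0.74 log2, and 7 of each 10 had an unadjusted p under 0.05. Under the PGR vector the medians were 0.25 and 0.49. All 8 atrial markers were above 0 under the control vector as well (median 0.99, 3 with an unadjusted p under 0.05), against 2 of 8 under the PGR vector (median -0.09). Macrophage markers had medians of 0.44 and 0.04 and mural markers of 0.20 and 0.06, under the control and PGR vectors. Their part in the sex differences of the 10 genes was not tested. Ranking the 4 groups by mean for each gene, neighbours in the order overlapped everywhere except for Pkp2, where PGR_F (405 to 417 CPM) lay above Con_M (379 to 396), the next group. PGR_F and Con_M differ in both vector and sex, and the share of all genes separated in this way was not counted.

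The genes were then compared with each other across the 13 libraries. Of the 45 pairs 28 had a Pearson r above 0, with a median of 0.15, and none passed after adjustment over the 45 pairs. The pairs with the largest r in size were Ctnnb1 with Jup and Dsc2 with Pkp2. Ctnnb1 and Jup ran in opposite directions, with r = -0.77 (permutation p = 0.0023, adjusted p = 0.052) and rho = -0.68 (permutation p = 0.014, adjusted p = 0.32), and with the group means removed r was also -0.77. The library with the least Jup, Con_F 1, had the most Ctnnb1, and the library with the most Jup, Con_M 3, had the least Ctnnb1. Without the 2 libraries farthest from the median of Ctnnb1 r was -0.51. Dsc2 and Pkp2 ran together, with r = 0.77 (permutation p = 0.0018, adjusted p = 0.052), rho = 0.68 (permutation p = 0.014, adjusted p = 0.32), r = 0.67 with group means removed and r = 0.62 without the 2 libraries farthest in Dsc2. With group means removed other pairs were as far from 0 or farther than Dsc2 with Pkp2: Ctnna3 with Vcl at 0.78 (0.32 with them kept), Ctnna3 with Jup at -0.78 (-0.50), Vcl with Dsc2 at 0.72 (0.34), Ctnna3 with Tjp1 at 0.70 (0.67) and Vcl with Jup at -0.68 (-0.51). Before removal their adjusted p for r was 0.21 to 0.63, and the values after removal carry no p. These points share library scaling, since every CPM value is a share of its library. Con_F 1 and Con_M 3, the ends of the Ctnnb1 and Jup relation, had 0.333% and 0.314% of their counts on mitochondrially encoded genes. Over all libraries, these included, that share ran from 0.233% to 0.481%, and its part in the relation was not tested.

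**Figure D4:**
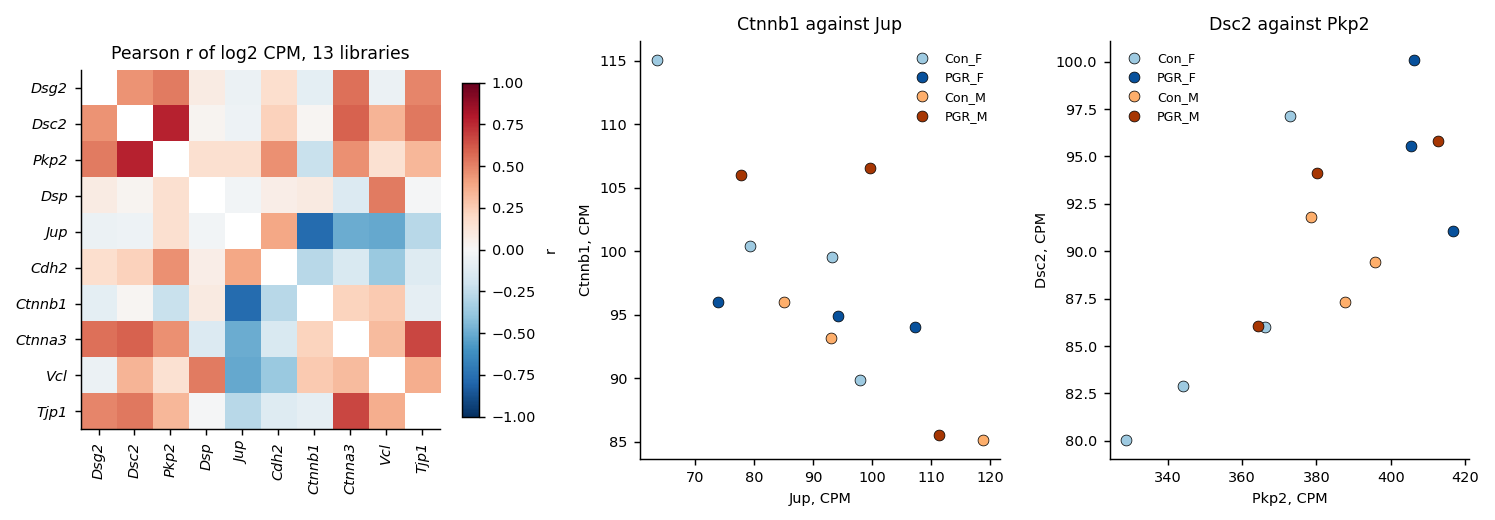
Left, Pearson r of log2 CPM between each pair of the 10 genes over 13 libraries (colour scale -1 to 1). Middle and right, CPM of Ctnnb1 against Jup and of Dsc2 against Pkp2, 1 dot per library coloured by group, with r = -0.77 and r = 0.77.

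Promoter sequence is shown for the pair that ran in opposite directions and for Ctnna3, the gene with the most counts. From RefSeq's table for GRCm38.p6, 9 windows were read for 6 of the 10 genes (Ctnna3, Ctnnb1, Dsp, Jup, Tjp1 and Vcl). Each holds the 250 bases before an annotated start, and the 2 of Ctnnb1 overlap each other. Cdh2, Dsc2, Dsg2 and Pkp2 had no window among those read, which does not show that the source lacks them. Shares of all windows given below are over the 32851 windows read. Both strands were searched for AGAACA, the half-site bound by progesterone and glucocorticoid receptors, and for the full palindrome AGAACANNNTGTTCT, which contains it. The other motifs were the GATA factor core GATAA, the Sp1-type box GGGCGG, the TATA box written as TATAAA and the MEF2 motif. Capitals mark every match to these motifs, on either strand, in 4 of the windows, printed 5′ to 3′ on the gene's strand:
Ctnna3, first start, chr10:63429848-63430097, plus strand: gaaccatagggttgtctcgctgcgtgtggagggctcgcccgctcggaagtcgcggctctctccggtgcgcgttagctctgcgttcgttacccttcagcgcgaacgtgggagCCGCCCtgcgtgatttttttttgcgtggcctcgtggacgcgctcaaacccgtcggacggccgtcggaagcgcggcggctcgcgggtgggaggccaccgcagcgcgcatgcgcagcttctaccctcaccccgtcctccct
Ctnna3, start inside the gene body, chr10:63820805-63821054, plus strand: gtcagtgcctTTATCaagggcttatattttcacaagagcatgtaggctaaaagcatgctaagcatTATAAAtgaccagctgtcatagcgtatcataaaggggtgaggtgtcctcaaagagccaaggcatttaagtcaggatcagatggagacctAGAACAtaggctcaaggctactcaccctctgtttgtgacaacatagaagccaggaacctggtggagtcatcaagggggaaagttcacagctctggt
Jup, chr11:100397791-100398040, minus strand: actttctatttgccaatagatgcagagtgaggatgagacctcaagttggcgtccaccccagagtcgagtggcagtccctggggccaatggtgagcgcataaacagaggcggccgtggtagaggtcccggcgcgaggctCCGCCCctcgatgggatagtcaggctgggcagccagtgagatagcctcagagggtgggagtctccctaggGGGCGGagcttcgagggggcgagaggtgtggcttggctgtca
Ctnnb1, chr9:120933150-120933399, plus strand: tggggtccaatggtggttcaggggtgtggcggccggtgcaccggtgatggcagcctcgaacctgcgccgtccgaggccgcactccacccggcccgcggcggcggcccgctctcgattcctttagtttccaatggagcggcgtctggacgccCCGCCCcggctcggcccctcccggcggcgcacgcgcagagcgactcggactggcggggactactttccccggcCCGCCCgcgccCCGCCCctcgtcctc

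The windows at the first start of Ctnna3 and the printed windows of Jup and Ctnnb1 are rich in G and C (67.6%, 62.0% and 74.8%, against a median of 52.4% over 32851 promoter windows) and hold GGGCGG boxes and none of the other motifs. The printed internal Ctnna3 window has 45.6% G and C, and it is the one printed stretch with matches to the receptor half-site, the GATA core and the TATA box, 1 of each. Another window inside the Ctnna3 body (chr10:63457261-63457510), not printed, has 44.8% G and C and none of the motifs. The printed internal window was the only one of the 9 windows with AGAACA, which 16.1% of all windows of this length hold. GGGCGG was in 7 of the 9 windows and in 32.7% of all, GATAA in 3 of 9 and in 22.6%, TATAAA in 2 of 9 and in 12.4%. The MEF2 motif was in none of the 9 and in 2.92% of all windows, and the full palindrome was in none of the 9 and in 0.00913%. No binding was measured here, and how many transcripts start at each of these sites cannot be read from counts per gene.

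Partner genes of the disc were read from lists for the same junctions. Of 25 further genes of desmosomes and adherens junctions 15 were tested. The 10 under the filter included the epithelial desmosomal genes Dsc3, Dsg3, Dsg4, Pkp1 and Pkp3, with 18, 9, 20, 32 and 5 counts over all 13 libraries together, and E-cadherin, Cdh1, with 12. For the averaged vector effect 11 of the 15 were above 0, the median was 0.03 log2, and 0 passed in edgeR, with 2 at an unadjusted p under 0.05. Over all tested genes 51% were above 0 in this comparison, 0.0062% passed and 14.8% had an unadjusted p under 0.05, and these shares also stand beside the counts of the 4 lists that follow. Pkp4, a relative of plakophilin found in adherens junctions, had 221 ± 19.2 CPM (SD, n = 4) in control-vector females and 269 ± 37.2 (n = 3) in PGR-vector females. In males the means were 244 ± 13.7 and 277 ± 4.76 (n = 3 each), in that order. Its averaged log2 fold change was 0.23 (SE 0.07, edgeR adjusted p = 0.17), and that of the adhesion receptor Nectin3 was 0.20 (SE 0.08, adjusted p = 0.277).

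A single gene of the partner lists passed in any comparison, that of the sexes under the control vector, where 0.229% of all tested genes passed. Cdh4, which encodes R-cadherin, a close relative of N-cadherin, was lower in females than in males under the control vector. Con_F 1 to 4 had 181, 113, 128 and 212 CPM and Con_M 1 to 3 had 300, 396 and 389, so these groups did not overlap. Its female over male log2 fold change was -1.19 (SE 0.20, edgeR adjusted p = 0.0344). Under the PGR vector the values were 119, 137 and 147 CPM in PGR_F and 300, 265 and 371 in PGR_M, again without overlap, with a log2 fold change of -1.22 (SE 0.22, adjusted p = 0.0616). Cdh4 was named because it passed under the control vector, so its separation there adds no support. Of all genes 4.94% had every Con_F library below every Con_M library, and 6.41% had every PGR_F library below every PGR_M library. The interaction was -0.03 (SE 0.29). The direction held in every setting tried, from -1.36 to -1.06 log2 under the control vector when 1 library was left out, while the call under the control vector ended without any of Con_F 1, Con_F 2, Con_F 3, Con_M 2, Con_M 3, PGR_M 1, PGR_M 3 or a PGR_F library, with adjusted p from 0.0503 to 0.214.

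Of 28 genes of the disc scaffold and the actin link 26 were tested, with 15 below 0 for the averaged vector effect, a median of -0.04, 0 past the threshold and 2 at an unadjusted p under 0.05, both below 0, which as a share is under the 14.8% of all genes. Vasp, which speeds actin filament growth at adhesion sites, had 23.1 ± 1.45 CPM (SD, n = 4) in control-vector females and 18.5 ± 2.14 (n = 3) in PGR-vector females. In males the means were 24.5 ± 1.14 and 18.3 ± 0.261 (n = 3 each), in that order. All 6 PGR-vector libraries (16.8 to 21.0 CPM) lay below all 7 control libraries (21.6 to 25.5), and the averaged log2 fold change was -0.37 (SE 0.06, edgeR adjusted p = 0.0607, passing at 0.0231 without Con_F 4). Over the edgeR, DESeq2 and limma-voom settings tried, its adjusted p ran from 6.59e-05 to 0.248. Vasp was named for its small p in this same comparison, so the separation adds no support, and the share of all genes with it was not counted. The focal adhesion protein zyxin, Zyx, was at -0.32 (SE 0.14, adjusted p = 0.303).

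Of 15 gap junction and sodium channel genes 13 were tested, 9 were above 0 (median 0.06), 0 passed and 1 had an unadjusted p under 0.05, against 51%, 0.0062% and 14.8% of all genes. Kcnj2, the inward rectifier potassium channel, was at 0.20 (SE 0.06, edgeR adjusted p = 0.164) and its relative Kcnj4, under 1 CPM, at -0.69 (SE 0.34). In the beta-catenin pathway 19 of 22 genes were tested, 7 were above 0 and 12 below (median -0.07), 0 passed and 3 had an unadjusted p under 0.05, the last near the 14.8% of all genes. Axin2, a target and brake of beta-catenin signalling, was at -0.27 (SE 0.09, adjusted p = 0.219). The partner factor Lef1, under 1 CPM with 277 counts over all libraries together, was at 0.66 (SE 0.22, adjusted p = 0.204). These 2 thus lay on opposite sides of 0, with Lef1 near the floor. In the Hippo pathway, which reads junction and cytoskeletal tension, 17 of 18 were tested, 11 were above 0 (median 0.06) against 51% of all genes, 0 passed and 3 had an unadjusted p under 0.05, again near 14.8%. The angiomotins Amotl2 and Amot were at 0.25 (SE 0.08, adjusted p = 0.192) and 0.32 (SE 0.13, adjusted p = 0.287). Without Con_F 4 Amot passed, at 0.421 (edgeR adjusted p = 0.0452), a setting in which 338 of all genes passed against 1 with every library. Over the edgeR, DESeq2 and limma-voom settings tried, the adjusted p of Amot ran from 0.0452 to 0.513. Over all tested genes the median of the averaged effect was 0.00.

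**Figure D5:**
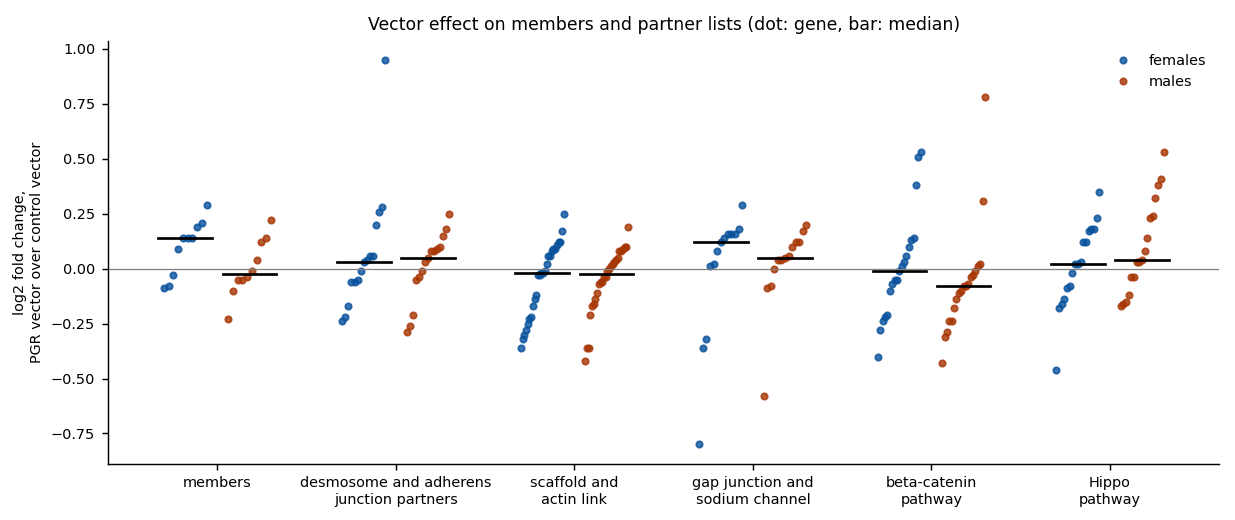
Log2 fold change of PGR vector over control vector (vertical axis) for each tested gene (dots), in females and males, for the 10 members and the 5 partner lists, with bars at the medians. The medians lie between -0.08 and 0.14, and 0 genes of these lists passed the threshold with the vector.

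Genes that overlap the 10 on the genome could share reads with them where strand was not used in counting, a setting that the labels give only as an abbreviation that is not spelled out. Jup, Dsc2 and Pkp2 overlap no other gene of the table. The tail of Ulk4 covers 5157 bases of Ctnnb1 from the opposite strand, and Ulk4 holds 13.8% as many counts as Ctnnb1. Ap3m1 covers 2235 bases of the end of Vcl and holds 8.27% as many counts. Lrrtm3, a synaptic adhesion gene that lies inside the body of Ctnna3 on the other strand, holds 0.0885% as many. For the other overlapping genes the share was at most 0.416%.

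For each of the 10, the tested gene with the most similar profile over the 13 libraries was found among 7509 named genes with a mean log2 CPM of at least 3. It was Rbms1, an RNA-binding protein gene, for Cdh2 (Pearson r = 0.94), Pard3b, a polarity protein gene, for Ctnna3 (0.94), Dnaja4, a chaperone gene, for Ctnnb1 (0.89) and Bdp1, a polymerase III factor, for Vcl (0.97). For the desmosomal genes it was Pfkfb1 for Dsg2 (0.84), Tmem106b for Dsc2 (0.90), Mut for Pkp2 (0.93), Clu for Dsp (0.90) and Acads for Jup (0.90), and for Tjp1 it was Fchsd2 (0.89). Each is the highest of 7509 values, and all share the libraries and their scaling, so these are given as a description.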

How the data were processed

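RNA was measured in 13 libraries of Pcm1-sorted nuclei from mouse ventricles. Per the labels' protocols, RNA was isolated with TRIzol and a column kit, depleted of ribosomal RNA and made into strand-aware libraries. GRCm38 and mm10 stand as builds in the submitters' processing notes, along with the tools STAR (version 2.5.3a) and featureCounts (version 1.5.0), none with a role, and the overlap rule was not given in the sources used here. The labels give strand handling and read length coverage only as abbreviations that are not spelled out. The deposited values are unnormalised counts of reads per gene, whole numbers with a different total in each library. In all 55536 genes the length in the table equals the end minus the start plus 1, so intronic reads can enter a count. The smaller deposited table held 15645 genes, 0 of them with other values, and served as an alternative. Files, columns and groups were matched by sample title.

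The main test was edgeR's (version 4.0.16, R 4.3.3): filterByExpr with the 4 groups (16125 genes kept), TMM factors, 4 group means fitted to all 13 libraries, a robust quasi-likelihood fit, and 6 contrasts whose p-values were adjusted by Benjamini-Hochberg over every tested gene. An SE is the log2 fold change over the square root of F, and 95% intervals use the fit's degrees of freedom. Log2 CPM for the similarity search used a prior count of 2. Correlations of log2 CPM used 100000 permutations, and those with marker sums were added after seeing the data. Alternatives were other scaling, no filter, the smaller table, DESeq2 1.42.0, limma-voom (limma 3.58.1), a non-robust prior, only the groups compared, the replicate block, and each library left out. The settings for genes outside the 10 were chosen after seeing the data. The fit and the correlation test were tested on simulated data.

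The members and lists were chosen with earlier results of these data known. Named were the 10 members, the 2 genes of each pathway list with the smallest p for the averaged vector effect, any list gene past the threshold, and the most similar gene of each member. The main test did not pair samples by replicate number, whose meaning the labels do not give. Over 16 same-numbered pairs from different groups the correlation of deviations from the group means had a median of -0.02 and was over 0.1 in 3. Over 47 pairs with other numbers the median was -0.01 and 11 were over 0.1. Such medians cannot show whether single numbers were paired.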

Additional observations from a re-analysis of the deposited data

Results flagged for a closer look

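Zyx, the zyxin gene, had 23.9 CPM in Con_F 1 against 14.7 to 15.8 in the other 3 Con_F libraries. That library lay far from the rest of its group by Dixon's criterion for 4 samples, which chance meets in about 1 of 20 groups. Of the 21 genes checked in this way, the 10 members and 11 partner genes, this was the single case.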

How the results depend on the processing

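None of the 10 genes passed the threshold in any of the 6 comparisons under any alternative, single libraries left out included. Of 520 values of the members under the other settings 517 kept their direction. With library totals only, Dsp in females was 0.029 and Pkp2 in males 0.021, and Pkp2 in males was 0.014 with no filter on low counts. Leaving out 1 library turned 35 of 780 values. For the vector in females this was Dsp (-0.121 to 0.039), and in males Ctnna3 (-0.099 to 0.006), Jup (-0.158 to 0.119) and Pkp2 (-0.052 to 0.033). For the averaged effect it was Ctnnb1 (-0.013 to 0.062), Tjp1 (-0.005 to 0.050) and Jup (-0.015 to 0.128), and for the interaction Cdh2 (-0.166 to 0.054) and Dsp (-0.027 to 0.135). For the sexes under the control vector it was Cdh2 (-0.162 to 0.052), Ctnna3 (-0.028 to 0.083) and Dsg2 (-0.081 to 0.097), and under the PGR vector Vcl (-0.063 to 0.166) and Jup (-0.213 to 0.058). The lowest adjusted p of Dsg2 over all settings was 0.192 in females and 0.105 averaged, and that of Pkp2 in females 0.129, all with DESeq2. For the averaged effect on Cdh2 it was 0.0899, at 0.243 log2 without Con_F 4.

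The count of all genes past the threshold, in edgeR 0, 0, 1 and 0 for the vector in females, in males, averaged and by sex and 37 and 23 for the sexes under the control and PGR vectors, did change. With no filter it was 25, 12, 146, 1, 131 and 51 in that order, and with DESeq2 81, 29, 334, 1, 224 and 80. The averaged count became 5 with library totals only and 21 with a non-robust prior. Fitting only the groups compared gave 1 in males, 17 for the sexes under the control vector and 56 under the PGR vector. Leaving out 1 library gave 0 to 20 in females, 0 to 3 in males, 1 to 338 averaged, 0 to 0 for the interaction, 14 to 99 for the sexes under the control vector and 10 to 44 under the PGR vector. The highest averaged and female counts came without Con_F 4, and the cause was not tested. With the replicate block, where numbers are shared, 35 genes passed for the sexes under the PGR vector, Cdh4 among them (adjusted p = 0.0363), and no call of a member changed. Cdh4 under the control vector had an adjusted p of 0.0935 with no filter and 0.159 with only the groups compared, and under the PGR vector it passed with DESeq2, limma-voom, a non-robust prior and only the groups compared (3.34e-06 to 0.0317). The averaged effect on Vasp passed with DESeq2 (6.59e-05), no filter (0.00573) and a non-robust prior (0.0428). Its adjusted p reached 0.248 in the setting where it was highest.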
